A study of Mus musculus with 16 samples.

Results

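The genes described here encode the proteins of the cytosolic ribosome. Members were taken by symbol: every row starting with Rps or Rpl and a digit, together with Rplp0, Rplp1, Rplp2 and Rpsa, without rows carrying the pseudogene mark -ps, without Rps27rt and without the S6 kinases. The rule found 86 members among 28692 symbols, of which 33 belong by name to the small (40S) subunit and 53 to the large (60S) subunit. The symbol rule also takes in some genes that are not subunits of the common ribosome. Rps19bp1 encodes a protein that binds Rps19, Rpl7l1 encodes an L7-like protein, and Rpl6l is annotated as a processed pseudogene of the L6 family.

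The study profiled single endothelial cells, which line blood and lymph vessels, sorted by FACS from lungs of female C57BL/6N mice. The d0 cells came from wild-type mice. The d15, d22 and d36 cells came from mice that had been given a subcutaneous implant of Lewis lung carcinoma (LLC) cells, a line from a mouse lung tumour, and that bore the primary tumour (d15), had had it resected (d22) or bore metastases (d36). The labels list 4 libraries for each day, made with the 10x Genomics Chromium 3′ kit, but the cell names carry the day alone, so each day was 1 pooled sample and no difference between days has a replicate check. Time after implantation also goes with tumour stage, and neither can be told apart from the day's libraries.

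After filters 2636, 1490, 3191 and 1583 endothelial cells remained in day order, of 9036 deposited. Depth differed by day. UMIs are unique molecular identifiers, each counting 1 captured transcript. The d0 and d22 cells had medians of 7654.5 and 7667 UMIs, and the d15 and d36 cells had 4172 and 3409. The comparisons d22 with d0 and d36 with d15 therefore set days of like depth side by side. All 8 pan-endothelial markers were detected on each day, at a summed 11796 to 13547 CPM (UMIs per 1000000 UMIs of that day), while the 4 pan-leukocyte markers together stayed at or below 14.7 CPM. Markers of several other cell types were higher on some days and varied by day. The 7 epithelial markers summed to 81.5, 52.6, 134.8 and 130.2 CPM in day order and the 5 mural markers to 15.2, 7.80, 16.7 and 34.97 CPM. The 4 erythroid markers summed to 12.7, 30.2, 11.5 and 16.5 CPM and the 7 macrophage markers to 11.8, 7.66, 15.2 and 19.8. The 4 B cell markers summed to 0.564, 1.73, 2.17 and 17.4 CPM. The part of these other cell types in the member values was not tested. Between days, 36 cell barcodes were shared.

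A ribosome is built from a small subunit, which decodes the messenger RNA, and a large subunit, which joins amino acids. The transcripts of its proteins are among the most abundant in most cells and are usually made in step, since each subunit takes 1 copy of nearly every protein. Most of them begin with a 5′ terminal oligopyrimidine (TOP) tract, a run of C and T bases through which mTOR signalling and the protein Larp1 adjust their translation and stability. The P stalk of the large subunit (Rplp0, Rplp1 and Rplp2) recruits the elongation factors.

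Start sequences of members whose levels are described below are given first, since the TOP tract is the feature most of these genes are known to share. RefSeq windows (GRCm38.p6) from 250 bases before to 50 after the annotated start were found for 65 of the 86 members. The lines below give 30 bases from 10 before the start, 5′ to 3′ on the gene's strand, with capitals on a run of at least 5 pyrimidines that begins with C within 10 bases of the start. Rps28, Rps27 and Rpl38 are short members among the highest at d36, Rps24 and Rps23 stood lowest at d15, and Rplp0 and Rpl10 lowest at d36.
Rps28 (chr17:33824543-33824572, minus strand): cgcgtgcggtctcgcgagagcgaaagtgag
Rps27 (chr3:90213629-90213658, minus strand): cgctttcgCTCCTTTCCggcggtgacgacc
Rpl38 (chr11:114668570-114668599, plus strand): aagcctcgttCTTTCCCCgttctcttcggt
Rps24 (chr14:24490668-24490697, plus strand): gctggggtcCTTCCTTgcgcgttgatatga
Rps23 (chr13:90923112-90923141, plus strand): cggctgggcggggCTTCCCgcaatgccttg
Rplp0 (chr5:115559457-115559486, plus strand): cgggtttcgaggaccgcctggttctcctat
Rpl10 (chrX:74270806-74270835, plus strand): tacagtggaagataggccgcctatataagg

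A TOP-like run as defined above was present in 39 of 65 members (60%), and in 9297 of 27025 symbols with a window (34.4%). By coding length it was found in 6 of 10 members with at most 100 codons and in 10 of 20 with over 200 codons. These are members with a window, not the measured sets used below. The short ones include Rpl39l, which had 0 UMIs on each day and has a run, and lack Rps29, which had no window. The long ones include Rpl3l and Rpl10l, which stayed below 50 CPM. The letters CCGGAAG, on either strand, lay in the windows of 26 members (40%) against 9.93% of all symbols. AAGATGG, on either strand, lay in 10 members (15.4%) against 7.28%. TATAAA on the sense strand, 40 to 20 bases before the start, was found in 1 member, Rpl22l1 (1.54%), against 2.25% of all symbols. Each match describes letters in these windows only. The printed starts show that members which moved apart between days were found both with a run (Rps27, Rps24) and without one (Rps28, Rplp0).

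Of the 86 members, 85 had a UMI in the endothelial cells and 83 reached 50 CPM on a day, the level from which ratios are given. The other 3 were paralogs known from other tissues. Rpl3l, a muscle paralog of Rpl3, had 3, 0, 4 and 2 UMIs at d0, d15, d22 and d36. Rpl10l, a testis paralog of Rpl10, had 0, 1, 0 and 2. Rpl39l had 0 on each day, where a count of 0 allows up to 0.13 CPM at d0 and 0.446 at d36. At d0 the 83 measured members ranged from 54.97 CPM (Rps19bp1) to 2628 (Rpl41), with a median of 875. Rpl41, Rpl13, Rps14, Rps23, Rps19, Rps18 and Rpl37a were among the most abundant. Since the 3′ kit counts ends, these levels do not scale with transcript length, but they may still differ by how well each 3′ end is captured.

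In day order from d0 to d36, the members together took 7.19%, 6.34%, 7.09% and 7.15% of all UMIs. The d15 share was the lowest, at 0.881 times that of d0 (95% interval 0.878 to 0.884), and the d22 and d36 shares were 0.986 and 0.995 times that of d0. Intervals here and below are exact binomial or Poisson intervals that cover counting error only, count UMIs as if independent and leave out any spread between mice or libraries. Per cell, the quartiles were 5.08% and 8.35% at d0 and 4.25% and 7.02% at d15, so the cells of both days overlapped widely. The d15 share was also below d0 in 4 of 4 ranges of UMIs per cell that held at least 50 cells on both days, at 0.771 to 0.963 times d0. In pooled cells a lower share cannot be told apart from a higher output of other transcripts.

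Both subunits were lower at d15 than at d0. The 40S members were at 2.53% of UMIs at d15 and 2.93% at d0, a ratio of 0.863 (0.858 to 0.867). The 60S members were at 3.81% and 4.26%, a ratio of 0.894 (0.890 to 0.898). The P stalk stood lower than either sum, at 0.809 times d0 (0.794 to 0.823). Its 3 transcripts were near each other: Rplp0, the scaffold of the stalk, had 1043, 834, 1015 and 824 CPM on d0, d15, d22 and d36. Rplp1, which pairs with Rplp2, had 764, 622, 767 and 664. Rplp2 had 833, 679, 843 and 794. All 3 were lower at d15 and d36 than at d0 and d22.

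Of the 83 measured members, 69 were below d0 at d15 and 14 above, and for 62 and 13 of them the counting interval excluded 1. The median ratio was 0.844, with quartiles of 0.810 and 0.958. Over all genes measured in this comparison, 48.9% were below 1. The 3 lowest ratios belonged to small-subunit proteins. Rps24 had 824, 589.8, 843 and 677 CPM on d0, d15, d22 and d36, a d15 to d0 ratio of 0.716 (0.692 to 0.741). Rps23, which lies in the decoding centre, had 1647, 1194, 1608 and 1366, a ratio of 0.725 (0.708 to 0.743). Rps7, Rpl30 and Rps15a had ratios of 0.752, 0.752 and 0.755.

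A size rule was used to describe larger differences. It asks for a ratio of 1.5 or more, either way, whose interval excludes 1, with at least 50 CPM on either day and 200 UMIs over both. At d15 against d0 it held for 1 member as higher, the pseudogene-type row Rpl6l, and for 0 as lower, where 4.13% and 2.27% of all measured genes met it. With a lower line, a log2 ratio of 0.32 or more either way, it held for 4 members as higher (Rpl6l, Rps19bp1, Rps28 and Rps29) and 18 as lower, against 14.2% and 11% of all measured genes. The 18 were 21.7% of the members and included Rps24, Rps23, Rps7, Rpl30, Rps15a, Rpl17, Rpl9, Rps6 and Rplp0. No test can be run on these counts, since each day is 1 pooled sample.

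At d22, after resection, members lay close to d0. The median ratio was 0.989, with quartiles of 0.971 and 1.03. Neither direction held a member past the size rule (0 higher and 0 lower), where 0.253% and 1.68% of all measured genes were. At the lower line there were 0 higher and 1 lower (Rpl6l, 0.733), against 2.08% and 6.57%. The standard deviation of log2 ratios over the 65 members with at least 500 CPM on either day was 0.07 at d22, beside 0.36 over 263 other genes at that level. The highest ratios were those of Rps21 (1.14), Rpl18 (1.095), Rpl30 (1.08), Rpl7a (1.08) and Rps10 (1.08), and the lowest after Rpl6l those of Rpl35 (0.843), Rpl23a (0.898), Rpl41 (0.910) and Rpl15 (0.911).

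At d36, in mice with metastases, the summed share was near that of d0 but single members had moved apart. Past the size rule, 5 members were higher (Rps28, Rps29, Rps27, Rpl6l and Rpl38) and 0 lower, where 4.3% and 3.29% of all measured genes met it. The 5 were 6.02% of the members. At the lower line there were 9 higher (10.8% of the members), with Rpl27, Rps19bp1, Rpl35 and Rpl41 added. There were 3 lower (3.61%), Rpl10, Rplp0 and Rpl10a, and the shares of all measured genes were 12.4% and 12.6%. Below d0 were 61 members (73.5%) and above it 22, where 55.1% of all measured genes were below. The standard deviation of log2 ratios over the 65 abundant members was 0.29 at d36, 0.18 over 64 at d15 and 0.07 at d22. Over other genes with at least 500 CPM on either day it was 0.42 at d36 and 0.47 at d15, wider than over the members.

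Rps28, a small-subunit protein at the exit of the messenger RNA channel, had 349, 479, 359.7 and 713 CPM on d0, d15, d22 and d36. Its d36 to d0 ratio was 2.05 (1.97 to 2.12), the highest of all members. Rps29, a small zinc-binding protein of the 40S head, had 987, 1255, 1030.3 and 1883, a ratio of 1.91 (1.87 to 1.95). In both, d36 was highest, d15 second, and d0 and d22 close together. Rps27, another zinc-binding 40S protein, had 1291.5, 1605, 1385 and 2305, a ratio of 1.79 (1.75 to 1.82). Rpl38, a large-subunit protein known for its part in the translation of Hox transcripts, had 528, 644, 562 and 853, a ratio of 1.61 (1.56 to 1.67). Rpl27 missed the size rule narrowly, with 329, 389, 323 and 489 and a ratio of 1.49 (1.43 to 1.55). Rpl6l, with 165, 287, 121 and 289, had a ratio of 1.75, and its reads cannot be separated from those of Rpl6 with certainty.

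The members lowest at d36 were parts of the large subunit. Rpl10, which completes the peptidyl transferase centre, had 1113, 876, 1088 and 856 CPM on d0, d15, d22 and d36, a ratio of 0.769 (0.747 to 0.791). Rplp0, given above, had a ratio of 0.790 (0.767 to 0.814). Rpl10a had 487, 410.1, 480.4 and 386, a ratio of 0.792 (0.759 to 0.827). In these 3 genes d15 and d36 were both below d0 and d22. Rpsa, the 40S protein also known as the laminin receptor, had 417, 339, 425 and 379.9, a ratio of 0.911 at d36 and 0.814 at d15.

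**Figure D1:**
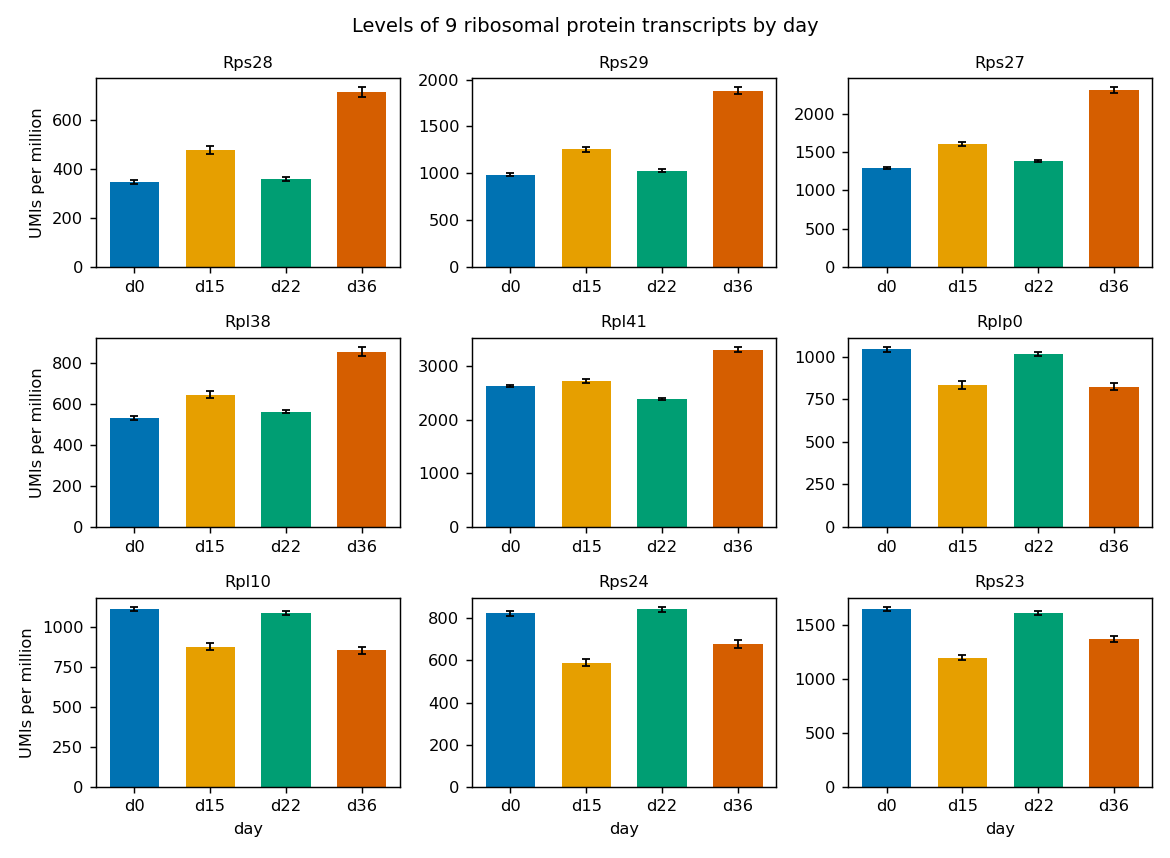
Bars give CPM (linear axis from 0) of 9 members on the 4 days, each day 1 pooled sample, and whiskers are exact 95% Poisson intervals of the count. Rps28, Rps29, Rps27 and Rpl38 are tallest at d36, while Rplp0, Rpl10, Rps24 and Rps23 are lower at d15 and d36 than at d0 and d22.

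Between d36 and d15, days of like depth, 75 of 83 members were higher at d36 and 8 (9.64%) lower, where 55.6% of all measured genes were lower. The median ratio was 1.09, with quartiles of 1.05 and 1.15. Past the size rule were 0 members higher and 0 lower, against 0.631% and 1.56% of all measured genes. Rps29 lay just below the line (interval 1.46 to 1.54). At the lower line there were 6 higher (Rps29, Rps28, Rps27, Rpl38, Rpl22 and Rpl27) and 0 lower, against 5.26% and 8.86%. The 3 members whose interval lay below 1 were Rps19bp1 (0.883), Rpl3 (0.931) and Rpl10a (0.941). The comparisons of d15 and of d36 with d0 share the d0 cells, and this one shares the d15 and d36 cells with them.

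Of the members past the size rule at d36, Rps28, Rps29, Rps27 and Rpl38 had short coding sequences, and Rpl6l had no coding length. Coding lengths came from GENCODE M21, and the split at 100 codons was chosen after the values were seen. The 10 measured members of at most 100 codons were Rpl41 (25 codons), Rpl39 (51), Rps29 (56), Rps28 (69), Rpl38 (70), Rps21 (83), Rps27 (84), Rps27l (84), Rpl37a (92) and Rpl37 (97). At d36, 9 of the 10 were above d0, with a median log2 ratio of 0.32. Of the 23 members with over 200 codons, 21 were below d0, with a median ratio of 0.885. At d15, 8 of the 10 short members were above d0 (median 1.09) and 22 of the 23 long ones below (median 0.832). At d22 the medians were 1.04 and 0.984.

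Some members did not follow their length class. Rps27l, the short member below d0 at d36 (417, 374, 435 and 382 CPM, ratio 0.917), is a paralog of Rps27 known as a p53 target. Rpl15, a long member, was above d0 at d36 (ratio 1.14). Rpl27 (136 codons), Rps19bp1 (143) and Rpl35 (123) were not in the short set but stood at 1.49, 1.32 and 1.28 times d0 at d36. Rpl41, the shortest and most abundant member, had 2628, 2721.5, 2390.2 and 3307, a ratio of 1.26 at d36. Across 82 members with a coding length, the log2 ratio and the log2 number of codons had a Pearson r of -0.62 at d36 (Spearman -0.55), -0.47 at d15 (-0.38), -0.15 at d22 (-0.23) and -0.58 for d36 over d15 (-0.53). Genes are not independent replicates, and all points of a comparison share the same cells, so these values are descriptions. Over the 66 members with no copy row in the table, r was -0.64 at d36.

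Other protein-coding genes were split in the same way. Among 141 other genes of at most 100 codons measured at d36, 68 were above d0 and 73 below, with a median ratio of 0.988. At d15 the median of 144 such genes was 0.941. Across 3401 other genes r was -0.04 at d36, and across 3464 it was 0.05 at d15. At d22 it was -0.19 across 3333 other genes, farther from 0 than in the members, and for d36 over d15 it was -0.14 across 3402. Between d36 and d15, however, 99 of 141 short genes outside the members were higher (median 1.07), beside 10 of 10 short members (median 1.23).

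**Figure D2:**
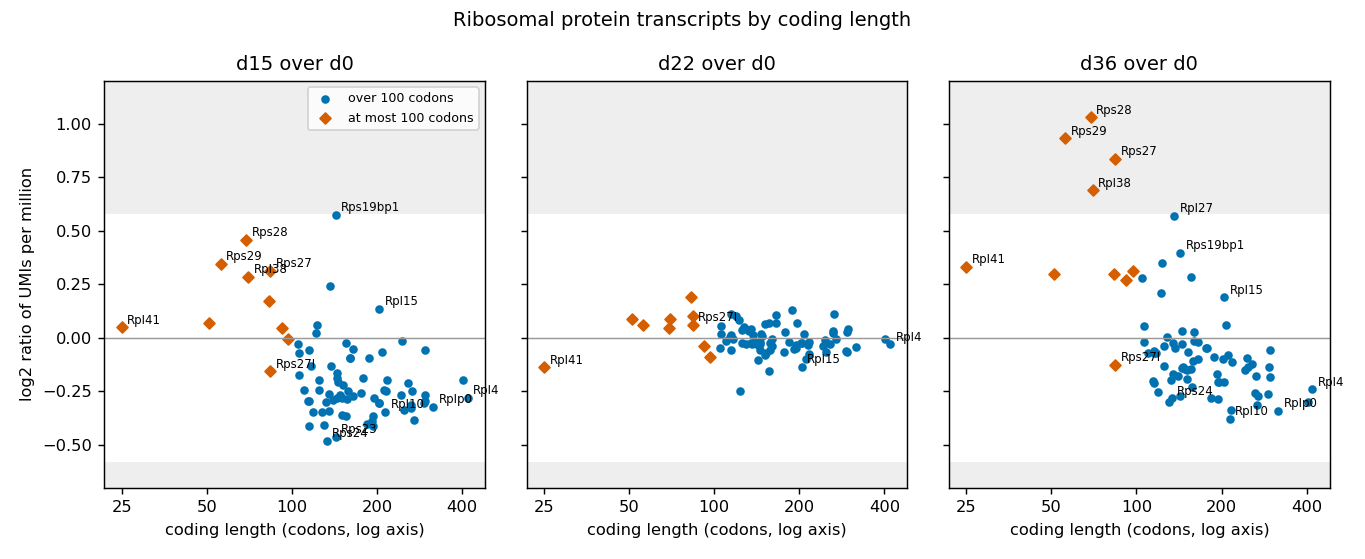
Each point is 1 of 82 members, with its coding length in codons (log axis) against its log2 ratio of CPM to d0 at d15, d22 and d36. Diamonds are the 10 members of at most 100 codons, circles the others, and grey bands mark ratios of at least 1.5 in either direction. Short members lie above most others at d15 and d36, and at d22 nearly all points lie near 0.

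The larger share of short members at d15 and d36 was seen in each vessel group and depth range of at least 50 cells. In day order, the 10 short members held 13.5%, 16.8%, 13.5% and 19.1% of all member UMIs. Across vessel groups of at least 50 cells their share lay between 13.1% and 13.9% at d0, 16.6% and 18.4% at d15, 13.2% and 14.3% at d22, and 17.98% and 20.3% at d36. Cells of clusters with little of the RNA Malat1 and of unnamed clusters, both described below, are counted here as groups. The Malat1-poor cells gave the upper end on each day, and the unnamed clusters the lower end at d36. The ranges of d15 and d36 did not overlap with those of d0 and d22. Across 5 ranges of UMIs per cell on each day they were 13.0% to 14.5% at d0, 16.2% to 18.6% at d15, 13.0% to 15.3% at d22 and 18.3% to 20.5% at d36. Here too the d15 and d36 ranges lay above those of d0 and d22. Ranges with under 50 cells on a day are not counted, so the 5 ranges are not the same on each day. At d0 and d22 cells of up to 2600 UMIs are left out, and at d15 and d36 those of over 12000. Over the ranges from 2600 to 12000 UMIs, held on each day, the shares were 13.5% to 14.5%, 16.2% to 18.3%, 13.5% to 15.3% and 18.3% to 19.98% in day order.

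Copies of ribosomal protein genes moved on the same days. The table holds 17 copy rows, symbols with -ps and Rps27rt, whose sequences are close to a member's, so that a read can be assigned to either. Their summed level was 958, 2018, 799 and 2632 CPM on d0, d15, d22 and d36. As a share of member plus copy UMIs this was 1.32%, 3.09%, 1.11% and 3.55%. Of 12 copies with at least 10 CPM, 12 were above d0 at d15 and at d36, and 10 were below it at d22. The share was nearly the same in each vessel group of at least 50 cells, Malat1-poor and unnamed cells again counted as groups. It lay between 1.28% and 1.36% at d0, 2.97% and 3.57% at d15, 1.08% and 1.22% at d22, and 3.22% and 3.77% at d36.

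Among single members, copies held most for Rps12, at 19.6%, 30.2%, 16.1% and 32.7% of the joint UMIs. For Rpl9 they held 15.8%, 30.2%, 12.3% and 30.3%. The copy of Rps18 stood at 19.9, 84.1, 18.1 and 119 CPM, the widest relative difference of the copies. In 12 members copies reached at least 5% on a day, and each of these members had a higher copy share at d15 and d36 than at d0 and d22. Levels of these 12 are therefore uncertain: Rpl10, Rpl13, Rpl13a, Rpl23a, Rpl27, Rpl36, Rpl7a, Rpl9, Rps12, Rps18, Rps26 and Rps27.

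Adding copies to their member changed some directions. Rpl9 stood at 0.889 times d0 at d36 alone and at 1.07 with its copies, Rps12 at 0.873 and 1.04, Rpl13 at 0.946 and 1.03, Rps18 at 0.955 and 1.02, and Rps26 at 0.960 and 1.09. Rpl10 remained below d0, at 0.769 alone and 0.879 with its copy. Rps27 stood at 1.79 alone and 2.05 with its copy, and Rpl27 at 1.49 and 1.65, so that Rpl27 reached the 1.5 line once its copy was added. Rps28, Rps29 and Rpl38 had no copy row. Copies that carry other symbols were not searched for. Whether the assignment of reads differed between the days was not tested.

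**Figure D3:**
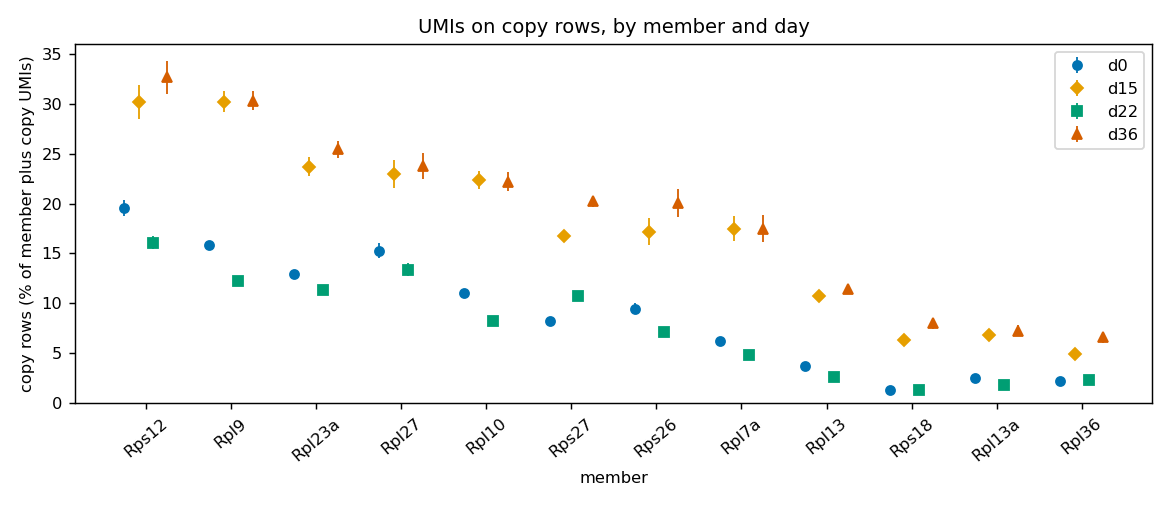
Each column is 1 of the 12 members whose copies reached 5% on a day, and the points give the copies' share of member plus copy UMIs (percent, linear axis from 0) on each day with exact 95% binomial intervals. In every column the d15 and d36 points lie above those of d0 and d22.

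Vessel groups were taken from clusters made without the members and their copies, and named from marker lists. They are general capillary-like cells, aerocyte-like cells (the large Car4-positive capillary cells of gas exchange), arterial-like and venous-like cells. At d0 the members took 10.1% of UMIs in venous-like cells, 8.16% in arterial-like cells, 7.43% in general capillary-like cells and 5.11% in aerocyte-like cells. The counting intervals of these 4 did not overlap. Per cell, the quartiles were 6.38% and 11.1% in venous-like cells and 4.02% and 5.58% in aerocyte-like cells. In arterial-like cells they were 5.38% and 8.34%, and in general capillary-like cells 5.52% and 8.29%. The median arterial-like cell (6.73%) lay below the median general capillary-like cell (6.82%), the reverse of their summed order. Aerocyte-like cells were also the deepest at d0, with a median of 13129 UMIs against 7537 in general capillary-like cells. With each cell thinned to 1200 UMIs the order of the summed shares was the same. Random thinning leaves the expected member share of a cell unchanged, so it cannot show whether depth bears on this order.

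Relative to general capillary-like cells at d0, the members together stood at 0.687 in aerocyte-like cells (0.684 to 0.690), with 78 of 83 below 1 and 76 intervals below 1. Of all genes with at least 50 CPM in either group, 50.4% were below 1. Past the size rule, 31 members were lower and 0 higher, against 16.4% and 14.2% of all measured genes. The 31 were 37.3% of the members. Rps6, the target of the S6 kinases, had 761 CPM in aerocyte-like and 1533 in general capillary-like cells, the lowest ratio of all members at 0.496 (0.480 to 0.512). Rps24 followed, with 452 and 880.5 and a ratio of 0.514 (0.492 to 0.536). The 5 members above 1 were Rpl27a, Rpl7l1, Rpl31, Rps27l and Rps19bp1, with intervals above 1 for 2 of them. Of these, Rps27l stood at 1.10 at d0 and 1.29 at d22, and Rpl31 at 1.07 and 1.02.

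In venous-like cells the members together stood at 1.35 times general capillary-like cells at d0 (1.35 to 1.36), with 81 of 83 above 1. Of all genes with at least 50 CPM in either group, 52.3% were below 1. Past the size rule 7 members were higher (Rpl36a, Rpl23, Rpl12, Rpsa, Rpl4, Rps2 and Rps4x) and 0 lower, against 9.34% and 13.7% of all measured genes. The 7 were 8.43% of the members, near the share of all genes. Rpl36a had 1017 CPM in venous-like and 628 in general capillary-like cells, a ratio of 1.62 (1.53 to 1.71). Rpsa had 663 and 432, a ratio of 1.54 (1.43 to 1.65). The 2 members below 1 were the paralogs Rpl36al (0.982) and Rps27l (0.990), both with intervals that included 1. Arterial-like cells stood at 1.10 times general capillary-like cells, with 71 of 83 above 1, where 53.3% of all genes with at least 50 CPM in either group were below 1. A single member (1) passed the size rule as higher, Rps28 at 1.53 (1.41 to 1.66), and 0 were lower, against 7.8% and 11.3%.

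By summed share the 4 groups had the same order at d15 and d22, and so did the 3 groups compared at d36. Aerocyte-like cells stood at 0.829, 0.683 and 0.756 times general capillary-like cells at d15, d22 and d36, with 71, 80 and 80 of 83 members below 1. Of all genes with at least 50 CPM in either group, 50.6%, 47.8% and 51.2% were below 1. Venous-like cells stood at 1.41 at d15 and 1.253 at d22, and held 36 cells at d36, too few to compare. Arterial-like cells stood at 1.29, 1.16 and 1.07 at d15, d22 and d36, with 76, 79 and 55 of 83 members above 1. Of all genes with at least 50 CPM in either group, 51.0%, 53.2% and 47.9% were below 1 in this comparison. Rps6 was at 0.496, 0.499, 0.491 and 0.568 in aerocyte-like cells over the 4 days. The venous-like ratio of Rpsa was 1.54, 1.36 and 1.17 at d0, d15 and d22.

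**Figure D4:**
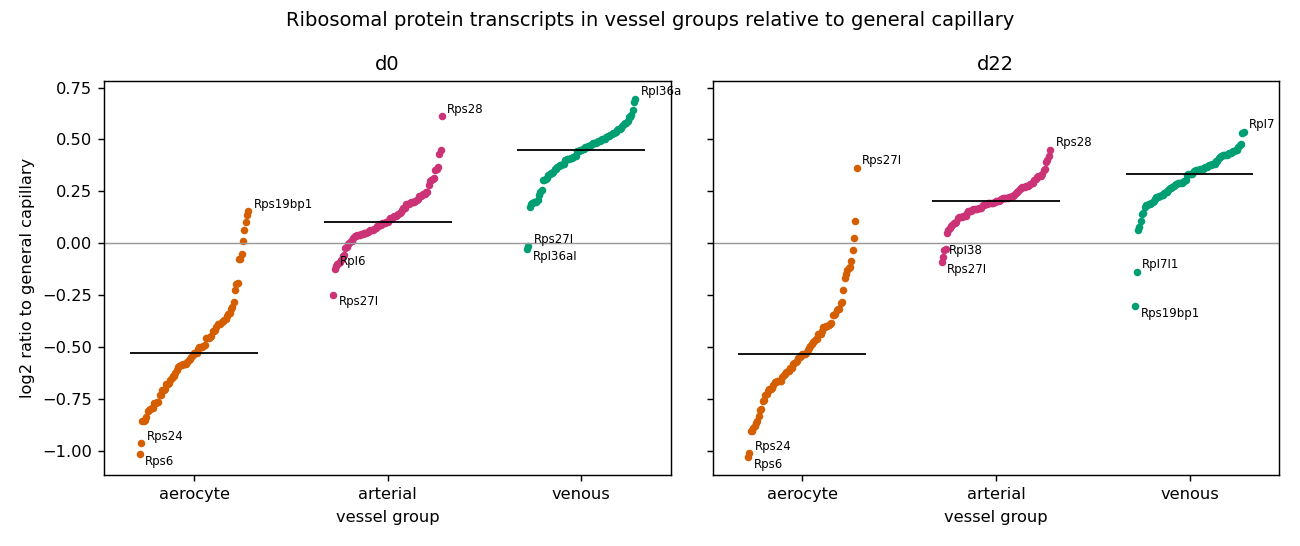
Each point is 1 of 83 members, ranked within its vessel group, with its log2 ratio to general capillary-like cells of the same day at d0 (left) and d22 (right), and black lines mark medians. Most members lie below 0 in aerocyte-like cells and above 0 in venous-like cells on both days, and Rps27l is the highest point in aerocyte-like cells at d22.

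Within general capillary-like cells the member share in day order was 7.43%, 5.99%, 7.50% and 6.99%. The d15 ratio to d0 of 0.806 (0.803 to 0.810) was lower than those of venous-like (0.838), arterial-like (0.948) and aerocyte-like cells (0.973), and cells of the unnamed clusters stood above d0, at 1.10 (1.09 to 1.12). Different clusters made up this group on different days. Cluster 4, led by Pcp4l1 and Aplnr, was 34.3% of it at d0 and 3.98% at d15, while cluster 3, with a median of 2500 UMIs per cell and mitochondrial genes among its leading genes, was 7.12% at d0, 31.9% at d15 and 39.0% at d36. Within clusters of at least 50 cells on both days, the d15 ratio was below 1 in 3 of 3, at 0.827 to 0.976. The d36 ratio was above 1 in 5 of 6 clusters, at 0.915 to 1.10, although the whole group stood at 0.942. Of these clusters, 3, 5 and 8 had 0 general capillary markers among their 10 leading genes and took the name from their marker score alone, which was lowest in cluster 3 (0.184). Aerocyte-like cells also changed make-up: cluster 1 held 409 of 459 cells at d0, 102 of 184 at d15, 477 of 546 at d22 and 94 of 245 at d36, and cluster 9, with a median of 2833 UMIs, held the rest. The member share of cluster 9 at d15 was 1.249 times that of d0 (1.21 to 1.29) and at d36 1.38 times (1.34 to 1.42), while cluster 1 stood at 0.977 and 1.04. The unnamed cells changed make-up as well. Cluster 17 held 3 of 222 of them at d0 and 16 of 79 at d15, with member shares of 12.0% and 13.0%. Cluster 2 held 198 and 48, with shares of 6.83% and 5.89%, and cluster 12 held 21 and 15, with 6.52% and 7.07%.

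Cells of clusters with little Malat1, a nuclear RNA, had the highest member share, 13.9% to 15.2% over the days. They were 6.26%, 3.76%, 3.95% and 8.72% of endothelial cells and had few UMIs, with medians from 1832.5 to 4008. Without them the summed shares were 6.96%, 6.19%, 6.92% and 6.82%. Mitochondrial UMIs made up 1.88%, 1.96%, 1.61% and 2.86% of the median cell. With mitochondrial transcripts and Malat1 taken out of the totals, the d15 share was still the lowest (6.83%, beside 7.726% at d0), and the median member ratios to d0 were 0.846 at d15 and 0.9445 at d36.

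**Figure D5:**
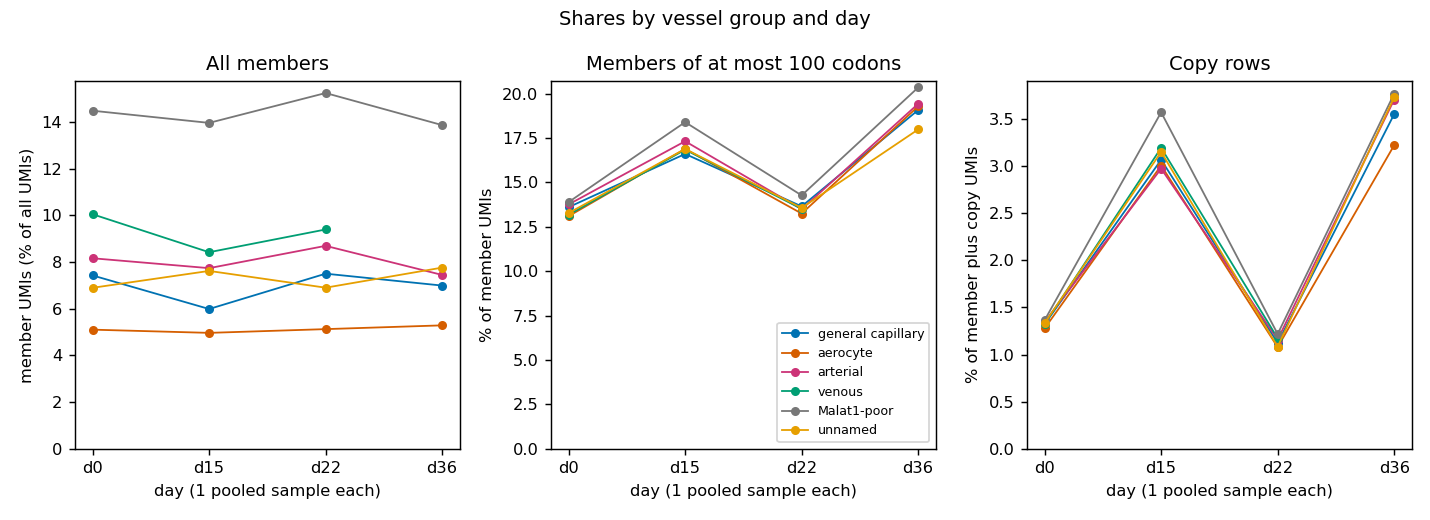
Points give shares for vessel groups, Malat1-poor cells and unnamed clusters of at least 50 cells on a day. Panels show all members as percent of UMIs (left), the 10 short members as percent of member UMIs (middle) and copies as percent of member plus copy UMIs (right). Axes start from 0 and lines join days only as a guide. On the left, Malat1-poor cells are highest and aerocyte-like cells lowest on each day. In the other panels all groups are higher at d15 and d36 than at d0 and d22.

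Other genes of the translation machinery were read from lists beside the members. Their medians are on the log2 scale with 1 CPM added, and the medians over all genes with at least 10 CPM were 0.02 at d15, -0.01 at d22 and -0.03 at d36. The 6 elongation factors had medians of -0.19, 0.03 and -0.25, with 5 of 6 below d0 at d15 and at d36. Eef1a1, which brings aminoacyl-tRNA to the ribosome, had 1611, 1158, 1661 and 1229 CPM on d0, d15, d22 and d36. Eef1b2, its exchange factor, had 165, 139.7, 173 and 122. Both were lower at d15 and d36 than at d0 and d22. The 19 other TOP transcripts, a list that also holds both of these genes, had medians of -0.23, 0.03 and -0.20. Vim, an intermediate filament gene in that list, passed the size rule as lower at d36 (ratio 0.633).

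Initiation factors had medians of -0.02, 0.01 and -0.03 over 30 genes. Eif4g2 was lower by the size rule on all 3 days (ratios 0.657, 0.531 and 0.651), and Eif3j1 was higher at d36 (1.62). The member Rps27a, which encodes ubiquitin fused to a 40S protein, had 1047, 812, 1099 and 947 CPM in day order, a ratio of 0.904 at d36. Mitochondrial ribosomal proteins, which serve the separate ribosome of that organelle, had medians of -0.02, 0.08 and -0.05 over 76 genes, and 1 met the size rule, Mrpl13, lower at d15 (0.663).

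Ribosome assembly genes had medians of 0.11, -0.00 and 0.01 over 28 genes. Past the rule, 1 of 13 measured was higher at d15 and 1 of 12 at d36, Wdr12 both times. Wdr12, a 60S assembly factor, had 35.0, 99.6, 33.8 and 79.3 CPM. Genes of mTOR signalling and TOP regulation had medians of 0.13, -0.01 and -0.00 over 17, 16 and 17 genes, and 0 of 5 measured met the size rule on any day. RNA polymerase I genes, which make ribosomal RNA, were mostly below 50 CPM, with 3 of 10 measured and 0 past the rule.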

How the data were processed

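Single-cell 3′ RNA sequencing of sorted lung endothelial cells gave 1 table of UMI counts per gene and cell, deposited by the authors as whole numbers without scaling. Cell Ranger 2.1.1 and mm10 are named, per the submitters' processing notes. For the annotation release, and for how reads were assigned between copies: not given in the sources used here. A cell was kept if it had 300 genes or more and no more than 10% of its UMIs from mitochondrial genes (19 failed). Clustering used 2000 variable genes, members and copies excluded, with 30 principal components and 15 neighbours, and Leiden clustering (leidenalg 0.10.2 on igraph 0.11.9, run from scanpy 1.11.5) with its resolution set to 1.0, which gave 20 clusters. Python 3.11.15 was used with scipy 1.17.1, numpy 2.4.6, pandas 2.3.3, matplotlib 3.10.9 and scikit-learn 1.9.0. Cells of other types (117, leaving 8900) were left out by cluster or singly. A cluster was left out when at least 2 markers of another type were found in at least 25% of its cells. It was also left out when at least 2 such markers were among its 10 leading genes, more than of its best vessel group. Single cells were left out when markers of another type held at least 2% of their UMIs. Naming thresholds were set after the clusters were seen, a cluster took the vessel group of its highest marker score, and stayed unnamed where markers of another group outnumbered its own among its 10 leading genes, or, for groups other than general capillary, where no leading gene was a marker or the score was under 1, and no doublet caller was run, so doublets remain.

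UMIs were summed by day or by day and group and divided by the total, as CPM. In day order the totals were 23029850, 6920858, 27626001 and 6720459 UMIs. Ratios have exact binomial and levels exact Poisson intervals at 95%. With 1 pooled sample a day there was no test and no p-value. edgeR 4.0.16 (R 4.3.3) gave only the scaling factors of an alternative. The 100-codon split, the UMI ranges and the lines within clusters were chosen after the values were seen. The interval and size rule were tried on simulated counts that held counting error only. That trial cannot show how they hold with spread between cells, libraries or mice. Alternatives covered cell filters, thinning, weights, denominators, copies and clustering. Named genes were, for each comparison of days, the 5 highest and 5 lowest measured members, the 8 most abundant, the P stalk, Rpsa, paralogs, the 4 highest and 4 lowest members per vessel group at d0, members with copies of at least 5%, and the 2 genes of each other list with the largest ratios, of which a part is printed, and some genes the rule names are not reported here. Members and lists were chosen with earlier results of these data known. Sequences are from RefSeq (GRCm38.p6) and coding lengths from GENCODE M21.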

Additional observations from a re-analysis of the deposited data

Results flagged for a closer look

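Vessel groups moved in opposite directions between the same days in these comparisons of their summed member share, with intervals that excluded 1. With 1 pooled sample a day, none of these differences between groups was tested. Between d22 and d0 general capillary-like cells stood at 1.01 and arterial-like cells at 1.065, while venous-like cells stood at 0.935. Between d36 and d0 aerocyte-like cells stood at 1.036, while general capillary-like cells stood at 0.9415 and arterial-like cells at 0.9124. Between d36 and d15 general capillary-like cells stood at 1.168 and aerocyte-like cells at 1.065, while arterial-like cells stood at 0.9624. The share of clusters within general capillary-like and aerocyte-like cells differed between these days. Within the aerocyte-like clusters 1 and 9 the d36 to d0 ratio was 1.036 and 1.38, and within 5 of 6 general capillary-like clusters it was above 1.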

How the results depend on the processing

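No paired analysis was possible because the cell names carry the day and not the library, so the replicate numbers in the labels could not be tied to cells. Shares follow in the order d0, d15, d22, d36. The d15 share was the lowest under each of 10 alternatives, while the order of the other days varied. With cells of at least 3000 UMIs it was 7.168%, 6.503% and 7.237% for d0, d15 and d36, and with all deposited cells 7.126% at d22. Thinned to 1200 UMIs the shares were 7.201%, 6.056%, 7.024% and 7.061%. With equal weight per cell they were 7.179%, 6.04%, 7.001% and 7.033%. With vessel groups weighted alike they were 7.519%, 6.688%, 7.623% and 7.265%. Without Malat1-poor cells they were 6.964%, 6.186%, 6.925% and 6.823%. Without mitochondrial transcripts and Malat1 in the total they were 7.726%, 6.83%, 7.62% and 7.769%. With TMM scaling they were 7.242%, 6.154%, 7.218% and 7.185%. Without the top 2% of cells by UMIs they were 7.153%, 6.315%, 7.075% and 7.216%. With copies added they were 7.286%, 6.539%, 7.17% and 7.418%.

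The median member ratio of d15 to d0 was 0.8171 with equal weight and 0.8132 with TMM. That of d22 to d0 was 1.02 with vessel groups weighted alike, above 1 where the main value was below it, and the cause was not tested. That of d36 to d15 was 1.145 thinned and 1.147 with equal weight. The order of vessel groups at d0 held in all 6 alternatives, which used sums or means over cells and not the median cell. General capillary-like cells stood at 7.331% and 7.348% at resolutions 0.5 and 2.0, 7.32% with members kept in the clustering, 7.379% by highest score, 7.003% thinned and 6.99% with equal weight. Arterial-like cells stood at 8.566%, 9.449%, 8.463%, 7.873%, 7.538% and 7.53% in the same order. Aerocyte-like cells stood at 5.633%, 4.91% and 4.844% in the last 3, and venous-like cells at 9.954%, 9.261%, 8.994% and 8.989% in the last 4. At the lower size line the counts were 4 higher and 18 lower at d15, 1 lower at d22, 9 higher and 3 lower at d36, and 6 higher for d36 over d15. The median log2 ratio of paralogs with all detected members was 0.1992 for d36 over d0 and 0.1256 for d36 over d15. With 10 CPM added, that of copies was 0.9211 at d15 and 1.241 at d36. Depth limits d15 and d36 most, and the intervals do not cover differences between mice.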
